A study of Mus musculus with 3 samples.

Results

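The EGF family ligands and receptors described here are 10 of the 32285 genes counted in a spatial transcriptome of mouse skin wounds. They were taken by gene symbol and comprise 7 ligands (*Hbegf*, *Areg*, *Ereg*, *Epgn*, *Btc*, *Tgfa* and *Nrg1*) and 3 receptors (*Egfr*, *Erbb2* and *Erbb3*), and all 10 had UMIs on each day. Full-thickness excisional punch wounds were made in the shaved back skin of adult male C57BL/6J mice, and wound tissue was collected on Day 3, Day 7 and Day 14, with 1 fresh frozen section per day. The labels name no other allele, agent or untreated control. Because a day was 1 section, a difference between days cannot be told apart from a difference between animals, sections or slides, and no test between days was made. On the Visium slide, spots with a positional barcode capture polyadenylated RNA, and each captured molecule is counted once by its unique molecular identifier (UMI). A spot is a small region that can hold several cells of different types, so the values describe regions and not cell types.

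EGF family ligands are made as membrane-anchored precursors, are released by ADAM proteases, and bind receptor tyrosine kinases of the ERBB family, which pair and signal through RAS and ERK. ERBB2 has no ligand of its own and acts as a partner, whereas ERBB3 has little kinase activity and depends on that partner. In skin the family is known for its part in keratinocyte proliferation, in the migration of keratinocytes over a wound and in the hair follicle cycle.

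Levels are given as CPM, the UMIs of a gene per 1000000 UMIs of all genes summed over the same spots, with exact Poisson 95% intervals. A ratio of 2 sums is given with its exact conditional binomial 95% interval. All intervals hold counting error only and contain no spread between animals. The sums under marked tissue ranged from 1772259 UMIs on Day 3 to 4611723 on Day 14, and 49% to 59.2% of the UMIs of a slide lay outside the marked spots. In a sum over spots, fewer cells of a type and less RNA per cell cannot be told apart.

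Among the ligands, *Hbegf* encodes heparin-binding EGF-like growth factor, a ligand linked to keratinocyte migration. Under tissue *Hbegf* had 24 UMIs on Day 3 (13.5 CPM, interval 8.68 to 20.1), 55 on Day 7 (12.4 CPM, 9.33 to 16.1) and 26 on Day 14 (5.64 CPM, 3.68 to 8.26). Day 3 and Day 7 did not differ beyond counting error, and Day 14 was lowest. A single spot held 9 of the 24 UMIs on Day 3, whereas no spot held more than 2 on Day 7 or Day 14.

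*Areg* (amphiregulin), *Ereg* (epiregulin) and *Epgn* (epigen) encode EGFR ligands, of which epiregulin also binds ERBB4. *Areg* had 10 UMIs on Day 3 (5.64 CPM, 2.71 to 10.4), 5 on Day 7 (1.13 CPM, 0.365 to 2.63) and 61 on Day 14 (13.2 CPM, 10.1 to 17). *Epgn* had 14 UMIs on Day 3 (7.9 CPM, 4.32 to 13.3), 5 on Day 7 (1.13 CPM, 0.365 to 2.63) and 23 on Day 14 (4.99 CPM, 3.16 to 7.48). Both were lowest on Day 7, where no spot held more than 1 UMI of either gene. *Ereg* differed less among days, with 11 UMIs on Day 3 (6.21 CPM, 3.1 to 11.1), 22 on Day 7 (4.95 CPM, 3.1 to 7.5) and 26 on Day 14 (5.64 CPM, 3.68 to 8.26), and its 3 intervals overlapped.

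*Btc* (betacellulin, a ligand of EGFR and ERBB4) had 36 UMIs on Day 3 (20.3 CPM, 14.2 to 28.1), 22 on Day 7 (4.95 CPM, 3.1 to 7.5) and 84 on Day 14 (18.2 CPM, 14.5 to 22.6). *Tgfa* (transforming growth factor alpha, a ligand of EGFR) had 42 UMIs on Day 3 (23.7 CPM, 17.1 to 32), 31 on Day 7 (6.98 CPM, 4.74 to 9.9) and 213 on Day 14 (46.2 CPM, 40.2 to 52.8). Both were low on Day 7, and Day 14 stood above Day 3 beyond counting error for *Tgfa* but not for *Btc*. *Nrg1* (neuregulin 1, a ligand of ERBB3 and ERBB4) was not lowest on Day 7, with 4 UMIs on Day 3 (2.26 CPM, 0.615 to 5.78), 23 on Day 7 (5.18 CPM, 3.28 to 7.77) and 8 on Day 14 (1.73 CPM, 0.749 to 3.42). Its Day 3 and Day 7 intervals overlapped. With all spots of the slide counted, *Nrg1* showed no rise from Day 3 to Day 7 (-0.02 on the log2 scale, -1.04 to 1.11). In the same spots it was lower on Day 14 than on Day 7 (-1.54, -2.72 to -0.49).

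Of the receptors, *Egfr* had 161 UMIs on Day 3 (90.8 CPM, 77.4 to 106), 345 on Day 7 (77.7 CPM, 69.7 to 86.3) and 462 on Day 14 (100 CPM, 91.3 to 110). *Erbb2* had 93 UMIs on Day 3 (52.5 CPM, 42.4 to 64.3), 225 on Day 7 (50.6 CPM, 44.2 to 57.7) and 742 on Day 14 (161 CPM, 150 to 173). *Erbb3* had 48 UMIs on Day 3 (27.1 CPM, 20 to 35.9), 124 on Day 7 (27.9 CPM, 23.2 to 33.3) and 429 on Day 14 (93 CPM, 84.4 to 102). Both partner receptors were alike on Day 3 and Day 7 within counting error and stood above both days on Day 14.

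**Figure D1:**
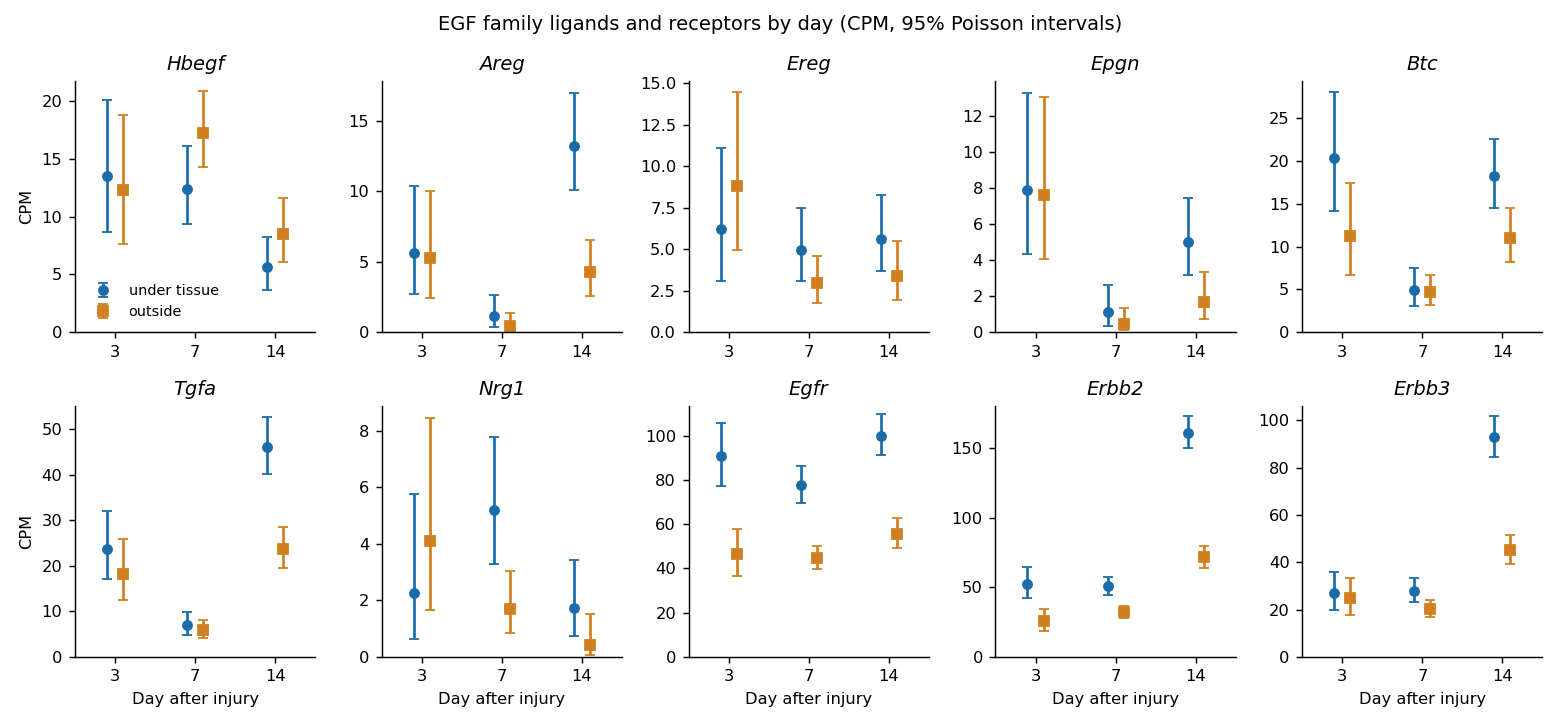
Level of each gene in CPM (vertical axes, linear, each from 0) by day after injury, in the spots under marked tissue (blue circles) and in the spots outside it (orange squares), with exact Poisson 95% intervals and 1 section per day. *Areg*, *Epgn*, *Btc* and *Tgfa* are lowest on Day 7, and *Erbb2* and *Erbb3* stand apart on Day 14.

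To count changes, a gene was called past 2-fold when its log2 ratio was at least 1 in either direction with an interval that left out 0, among genes with at least 50 UMIs over both sums. From Day 3 to Day 7, 6 of the 10 members reached that minimum. *Btc* was lower, with a log2 ratio of -2.04 (-2.87 to -1.23), and *Tgfa* was lower, with -1.76 (-2.48 to -1.06). No member was higher, while 7.95% of all counted genes were higher and 6.49% were lower. Without its fullest spot *Btc* stood at -1.81 and missed the minimum of UMIs. *Areg* and *Epgn*, both under that minimum, had log2 ratios of -2.33 (-4.22 to -0.64) and -2.81 (-4.64 to -1.26). *Hbegf* differed by the weighting of spots, at -0.13 from the sums and 1.20 from the mean of spot CPM.

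From Day 7 to Day 14, 7 members reached the minimum and 5 of them were higher, against 10.9% of all counted genes. *Areg* was 11.8-fold higher (log2 ratio 3.56, 2.25 to 5.23), *Tgfa* 6.62-fold (2.73, 2.18 to 3.32) and *Btc* 3.68-fold (1.88, 1.19 to 2.63). The receptors *Erbb3* and *Erbb2* were 3.33-fold (1.74, 1.45 to 2.04) and 3.18-fold higher (1.67, 1.45 to 1.89), whereas *Egfr* was not past 2-fold (0.37, 0.16 to 0.57). *Hbegf* was the 1 member called lower (-1.13, -1.87 to -0.44), against 7.34% of counted genes. *Nrg1* had a ratio of -1.58 (-2.95 to -0.37) and *Epgn* one of 2.15 (0.72 to 3.9), both on fewer than 50 UMIs.

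Between Day 3 and Day 14, *Areg* (1.23, 0.25 to 2.36), *Erbb2* (1.62, 1.3 to 1.94) and *Erbb3* (1.78, 1.35 to 2.24) were higher on Day 14, and *Hbegf* was lower (-1.26, -2.12 to -0.4). Over all counted genes 14.2% were higher and 6.83% lower. The *Hbegf* call rested on the spot with 9 UMIs, without which the log2 ratio was -0.70 (-1.69 to 0.33). Over all spots of the slide, *Areg* (0.67, -0.07 to 1.47) and *Hbegf* (-0.87, -1.44 to -0.29) were not past 2-fold, and *Epgn* was past 2-fold lower on Day 14 (-1.22, -2.02 to -0.42). *Btc* (-0.16, -0.74 to 0.45) and *Egfr* (0.14, -0.12 to 0.41) did not differ between these days beyond counting error, and *Tgfa* stood just under the threshold (0.96, 0.48 to 1.48). The 3 comparisons share sections, so they are not independent of each other. The median log2 ratio over the members counted was -0.18, 1.74 and 0.96 for Day 7 over Day 3, Day 14 over Day 7 and Day 14 over Day 3, beside 0.04, 0.13 and 0.18 over all counted genes.

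Marker transcripts of epidermis and hair in the sections differed in the same direction as several of these ratios. *Krt14*, a keratin of basal epidermis, was at 2580, 953 and 2151 CPM in the order of days, and a list of 10 basal keratinocyte genes at 3427, 2419 and 4977 CPM. A list of 9 genes of the inner root sheath and hair shaft had 6 UMIs on Day 3 and 16 on Day 7, but 26730 on Day 14. Per UMI of the basal keratinocyte list, the Day 14 over Day 7 log2 ratio was 2.51 (1.21 to 4.19) for *Areg*, 1.69 (1.14 to 2.28) for *Tgfa* and 0.84 (0.15 to 1.59) for *Btc*. On this scale *Erbb2* (0.63, 0.41 to 0.85) and *Erbb3* (0.70, 0.4 to 1) were no longer past 2-fold, and *Egfr* turned to -0.67 (-0.88 to -0.47). *Hbegf* (-2.18, -2.91 to -1.48) and *Nrg1* (-2.62, -3.99 to -1.41) were lower on both scales. Whether the higher epidermal and hair marker levels of the Day 14 section underlie the higher receptor values was not tested.

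**Figure D2:**
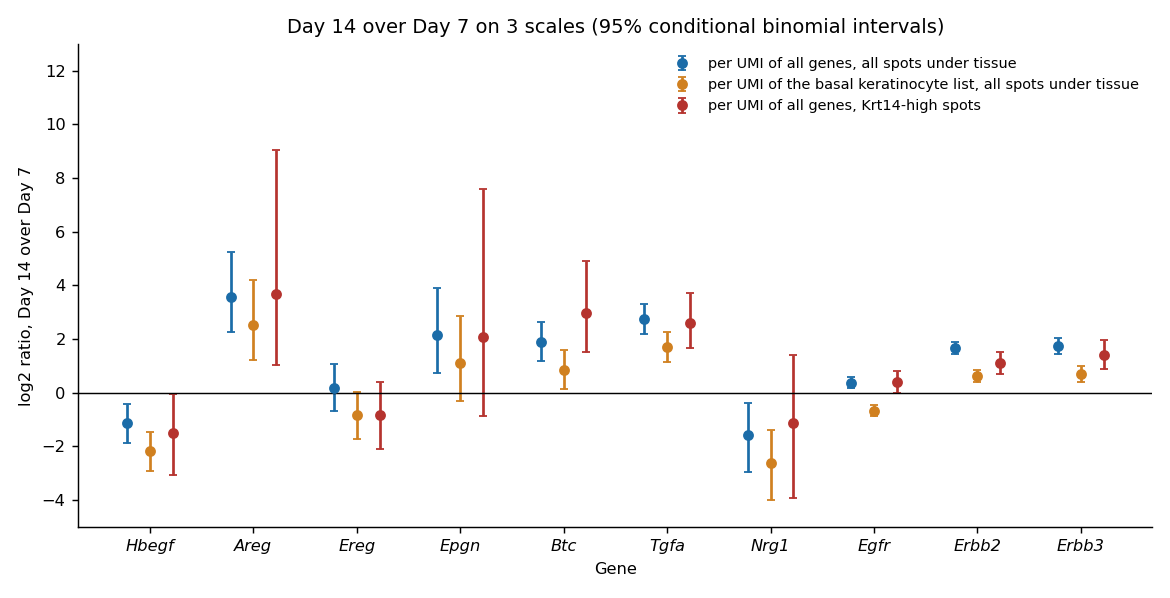
Day 14 over Day 7 log2 ratio of each gene (vertical axis), per UMI of all genes over the spots under tissue (blue), per UMI of the basal keratinocyte list over the same spots (orange) and per UMI of all genes within *Krt14*-high spots (red), with exact conditional binomial 95% intervals. *Areg*, *Btc* and *Tgfa* lie above 0 on all 3 scales, *Hbegf* lies below 0 on all 3, and *Egfr* lies on either side of 0.

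In the GRCm38 annotation, *Epgn*, *Ereg*, *Areg* and *Btc* are protein-coding genes within 376 kb of chromosome 5 (chr5:91027464-91402994), with *Btc* on the minus strand and the other 3 on the plus strand. *Tgfa* lies at chr6:86195223-86275719, *Egfr* at chr11:16752203-16918158, *Erbb2* at chr11:98412470-98437716, *Erbb3* at chr10:128567523-128589652 and *Nrg1* at chr8:31814551-32884029. *Areg*, *Btc* and *Tgfa* were the ligands past 2-fold higher on Day 14 than on Day 7, and the 100 bases before their start sites are shown so that members with the same direction can be compared. They are read 5′ to 3′ on the strand of the gene, from RefSeq promoters of GRCm38.p6, which were given for 6 of the 10 members. Capitals mark a TATA box (TATAAA), a cAMP response element (TGACGTCA) or a GC box (GGGCGG) on either strand.
Areg: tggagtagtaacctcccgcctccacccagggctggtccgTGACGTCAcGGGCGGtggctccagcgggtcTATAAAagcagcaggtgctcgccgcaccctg
Btc: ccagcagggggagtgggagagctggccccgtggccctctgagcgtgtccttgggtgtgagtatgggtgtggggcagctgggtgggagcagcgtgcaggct
Tgfa: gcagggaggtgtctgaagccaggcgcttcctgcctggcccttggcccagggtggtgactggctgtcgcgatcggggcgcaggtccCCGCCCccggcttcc
These stretches are chr5:91139499-91139598 on the plus strand for *Areg*, chr5:91402995-91403094 on the minus strand for *Btc* and chr6:86195122-86195221 on the plus strand for *Tgfa*. The *Areg* stretch holds all 3 motifs, that of *Tgfa* a GC box on the opposite strand, and that of *Btc* none. The shares over all promoters were taken from the 250 bases before the start of 32851 RefSeq promoters, a longer window than the 100 bases shown. There the TATA box was present in 12.4%, the cAMP response element in 1.55% and the GC box in 32.7%. In that window *Tgfa* had a further GC box on its own strand, whereas *Areg* and *Btc* had no further motif. The motifs do not overlap each other, and a match is a description of the letters only.

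The next question was whether the ligands lay in epidermal or in wound bed spots. Within the spots under tissue with at least 500 UMIs, *Krt14*-high spots were the 20% with the highest *Krt14* share, and wound bed spots were the 20% with the highest share of a list of 10 wound matrix genes (*Postn*, *Tnc*, *Fn1* and others), less those that were also *Krt14*-high. This gave 104 and 78 spots on Day 3, 108 and 99 on Day 7, and 138 and 125 on Day 14, and 26, 9 and 13 spots qualified for both. The basal keratinocyte list, which did not choose the spots, was at 7386 CPM in *Krt14*-high and 1030 CPM in wound bed spots of Day 3, 4842 and 1178 CPM in those of Day 7, and 8232 and 3322 CPM in those of Day 14. Macrophage genes were higher in wound bed than in *Krt14*-high spots of each section, at 6882 against 3515 CPM for Day 3, 3948 against 2021 CPM for Day 7 and 2230 against 890 CPM for Day 14. *Col1a1*, a matrix collagen, was higher in the wound bed on Day 7 (36897 against 26180 CPM) and Day 14 (28687 against 16226 CPM) but not on Day 3 (17813 against 20825 CPM). Hair genes of Day 14 were at 5271 CPM in *Krt14*-high and 3988 CPM in wound bed spots. The lowest *Krt14* share in a *Krt14*-high spot was 27.3, 13.6 and 25.3 UMIs per 10000 in the order of days. The classes are therefore enriched regions and not pure tissues, and they are not alike among days.

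On Day 3 *Areg*, *Ereg*, *Epgn* and *Btc* had more UMIs in *Krt14*-high than in wound bed spots, whose sums were 546459 and 326061 UMIs. *Btc* had 24 UMIs in *Krt14*-high spots (43.9 CPM, 28.1 to 65.3), none in wound bed spots and 12 in the remaining spots (13.6 CPM, 7.03 to 23.8). The interval of the *Btc* log2 ratio of *Krt14*-high over wound bed spots had its lower end at 1.84, or at 1.23 without the spot that held 8 of its UMIs. *Ereg* had 10 UMIs in *Krt14*-high, none in wound bed and 1 in the remaining spots, and the lower end of its interval was 0.42. *Areg* had 7, 0 and 3 UMIs in these classes, and *Epgn* 11, 1 and 2. For both, the interval of the ratio of *Krt14*-high over wound bed spots reached 0. Of these 4 ligands the wound bed spots therefore held a single UMI. *Tgfa* did not follow this split, with 20 UMIs in *Krt14*-high spots (36.6 CPM, 22.4 to 56.5) and 9 in wound bed spots (27.6 CPM, 12.6 to 52.4). *Hbegf* had 17 UMIs in *Krt14*-high spots (31.1 CPM, 18.1 to 49.8), 4 in wound bed spots (12.3 CPM, 3.34 to 31.4) and 3 in the remaining spots, and without its fullest spot the first value was 14.9 CPM (6.41 to 29.3).

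Among the receptors on Day 3, *Erbb2* was past 2-fold higher in *Krt14*-high spots, at 101 CPM (75.8 to 131) against 39.9 CPM (21.2 to 68.2), with a log2 ratio of 1.34 (0.45 to 2.33). It was 1 of 2 members with enough UMIs, against 14.2% of counted genes higher and 8.86% lower. Weighting each spot equally, by the mean of spot CPM, turned this ratio to -0.42. *Erbb3*, on 31 UMIs, stood at 51.2 against 9.2 CPM (2.48, 0.78 to 4.84). *Egfr* was at 84.2 CPM (61.6 to 112) in *Krt14*-high, 110 CPM (77.3 to 153) in wound bed and 89.6 CPM (70.9 to 112) in the remaining spots. Its log2 ratio of *Krt14*-high over wound bed spots was -0.39 (-1.05 to 0.28), and with the top 10% of spots in place of 20% it was -1.68 (-2.74 to -0.68).

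On Day 7, *Ereg* was the ligand with a difference beyond counting error between the classes. It had 13 UMIs in *Krt14*-high spots (15.6 CPM, 8.3 to 26.7) against 3 in wound bed spots (2 CPM, 0.412 to 5.84), a log2 ratio of 2.96 (1.1 to 5.42). *Btc*, at 4.8 and 3.99 CPM, and *Hbegf*, at 14.4 and 12 CPM, showed no such difference under tissue. Over all spots of the slide, however, *Hbegf* was past 2-fold higher in *Krt14*-high spots (1.24, 0.47 to 2.01). *Nrg1* had 4 UMIs in *Krt14*-high (4.8 CPM, 1.31 to 12.3), 13 in wound bed (8.66 CPM, 4.61 to 14.8) and 6 in the remaining spots (2.85 CPM, 1.05 to 6.2), with a log2 ratio of wound bed over remaining spots of 1.6 (0.11 to 3.28). *Erbb3* was past 2-fold higher in *Krt14*-high spots (43.2 against 21.3 CPM, 1.02, 0.29 to 1.75), 1 of 3 members counted, beside 6.59% of counted genes higher and 3.31% lower. This call was lost under 11 alternatives that kept the direction, with log2 ratios from 0.60 to 1.49, of which all spots of the slide gave 0.80. *Erbb2* was just under the threshold (0.89, 0.37 to 1.42), and *Egfr* had a ratio of 0.21 (-0.23 to 0.65).

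On Day 14, *Btc* was past 2-fold higher in *Krt14*-high spots, with 52 UMIs (37.8 CPM, 28.2 to 49.5) against 9 in wound bed spots (12 CPM, 5.5 to 22.8) and a log2 ratio of 1.65 (0.62 to 2.86). It was the 1 member of 5 counted that was called, and 4.82% of counted genes were higher and 3.35% lower. *Tgfa* stood at 73.4 CPM (59.8 to 89.2), 45.5 CPM (31.5 to 63.5) and 31.4 CPM (24.8 to 39.2) in *Krt14*-high, wound bed and remaining spots. *Areg* was at 15.3, 6.68 and 14.1 CPM, and its intervals overlapped. For *Erbb2*, at 164, 138 and 166 CPM, and *Erbb3*, at 115, 84.2 and 83.3 CPM, the log2 ratio of *Krt14*-high over wound bed spots was 0.25 (-0.09 to 0.60) and 0.45 (0.02 to 0.89). No member was called lower in *Krt14*-high than in wound bed spots on any day. The median log2 ratio over the members counted was 0.47, 0.89 and 0.45 on Day 3, Day 7 and Day 14. Over all counted genes it was -0.04, 0.03 and 0.07. No ligand reached the minimum of UMIs on Day 3 or Day 7, and 2 did on Day 14. The medians of Day 3 and Day 7 are therefore of receptors only.

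**Figure D3:**
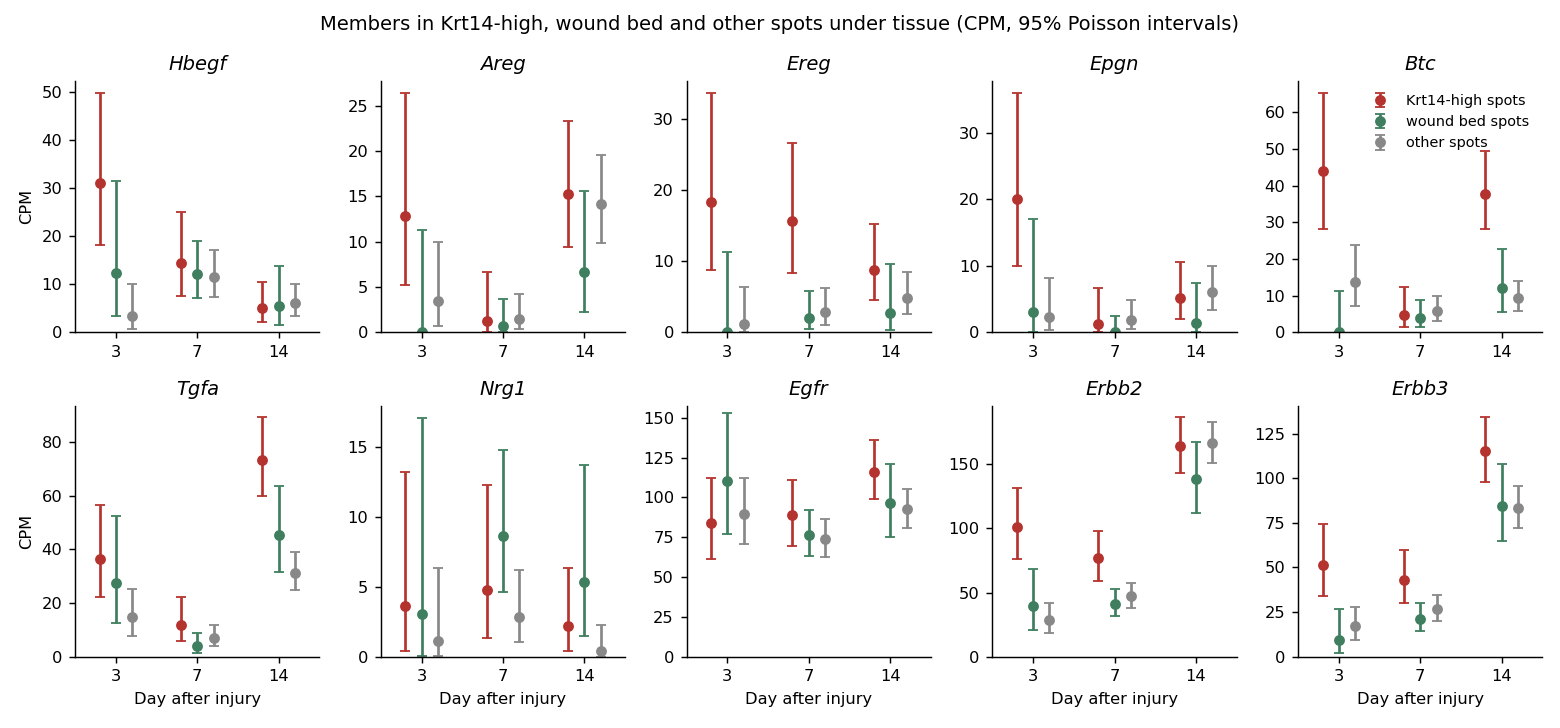
Level of each gene in CPM (vertical axes, linear, each from 0) in *Krt14*-high (red), wound bed (green) and remaining spots (grey) under tissue by day, with exact Poisson 95% intervals and 1 section per day. *Ereg*, *Epgn* and *Btc* stand highest in *Krt14*-high spots on Day 3, and *Nrg1* is highest in wound bed spots on Day 7.

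Members were also summed by distance from the nearest *Krt14*-high spot, in steps of 1 pitch, the spacing between neighbouring spots. The first step is the *Krt14*-high class itself. On Day 3, *Erbb2* was at 101 CPM in *Krt14*-high spots, 52.6 CPM at 1 pitch, 19.9 CPM at 2 to 3 pitches and 9.52 CPM at 4 or more pitches. *Erbb3* was at 51.2, 24.3 and 11.9 CPM and had no UMI at 4 or more pitches, which allows up to 17.6 CPM. The values of both receptors thus fell up to 2 to 3 pitches, and the last step was within counting error. For *Erbb2* it rested on 2 UMIs at 4 or more pitches (1.15 to 34.4 CPM), against 9.53 to 36.5 CPM at 2 to 3 pitches. *Egfr* stood at 84.2, 101, 105 and 57.1 CPM. On Day 7 *Ereg* was at 15.6, 3.5, 1.2 and 3.88 CPM and *Erbb2* at 76.8, 53.9, 38.5 and 38.8 CPM. *Hbegf* of Day 7, at 14.4, 10.5, 10.2 and 19.4 CPM, and *Btc*, at 4.8, 3.5, 6.62 and 3.88 CPM, showed no steady fall. On Day 14 *Tgfa* stood at 73.4, 42.8, 32 and 22.3 CPM over these distances, and *Areg* at 15.3, 14.5, 13.3 and 4.05 CPM. *Erbb2* of Day 14 was at 164, 194, 156 and 85.1 CPM, and *Erbb3* at 115, 93.6, 85.9 and 50.7 CPM.

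*Krt14*-high spots of Day 3 were next split by the wound bed list. In the 26 *Krt14*-high spots that were also rich in the wound bed list, *Hbegf* had 11 UMIs (152 CPM, 75.8 to 272), against 6 UMIs in the other 78 *Krt14*-high spots (12.7 CPM, 4.64 to 27.5), a log2 ratio of 3.59 (2.02 to 5.3). This difference rested on 1 spot with 9 UMIs, without which the ratio was 1.29 (-2.05 to 3.78), on 2 UMIs against 6. *Btc* had 0 UMIs in the first and 24 in the second group, *Epgn* 0 and 11, and *Ereg* 0 and 10. The intervals of these 3 ratios reached past 0, with upper ends of 0.12, 1.38 and 1.55 on the log2 scale. *Erbb2* had 2 UMIs (27.6 CPM) and 53 UMIs (112 CPM), with a log2 ratio of -2.02 (-5.1 to -0.09).

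After the maps were seen, a core of the wound bed was defined as list-rich spots with at least 4 list-rich neighbours, and the distance of each UMI from it was measured. All 17 *Hbegf* UMIs in *Krt14*-high spots of Day 3 lay within 8 pitches of the core, at a median of 0 pitches, and none lay in the 41 *Krt14*-high spots farther away. *Hbegf* was at 65.9 CPM (38.4 to 106) in the near *Krt14*-high spots, and the interval of the near over far log2 ratio had its lower end at 2.21, or at 0.98 without its fullest spot, on 8 UMIs. *Btc* lay at a median of 17.7 pitches, with 4 UMIs near (15.5 CPM, 4.23 to 39.7) and 20 far (69.3 CPM, 42.3 to 107), a near over far log2 ratio of -2.16 (-4.17 to -0.58). Without its fullest spot this was -1.48 (-3.56 to 0.25), so that 1 spot decided whether the interval left out 0. *Ereg* (2 near, 8 far) and *Epgn* (2 near, 9 far) had medians of 17.7 and 16.7 pitches, and *Areg* (5 near, 2 far) one of 1.73 pitches. The median *Krt14*-high spot was 5 pitches from the core. All 12 *Hbegf* UMIs in *Krt14*-high spots of Day 7 also lay near the core, as did 79 of the 108 such spots, and with none in the other 29 the lower end of the interval was -0.02. On Day 14 *Hbegf* had 4 UMIs near and 3 far, and *Btc* had 53.1 CPM (33.3 to 80.3) near and 31.2 CPM (21 to 44.5) far.

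**Figure D4:**
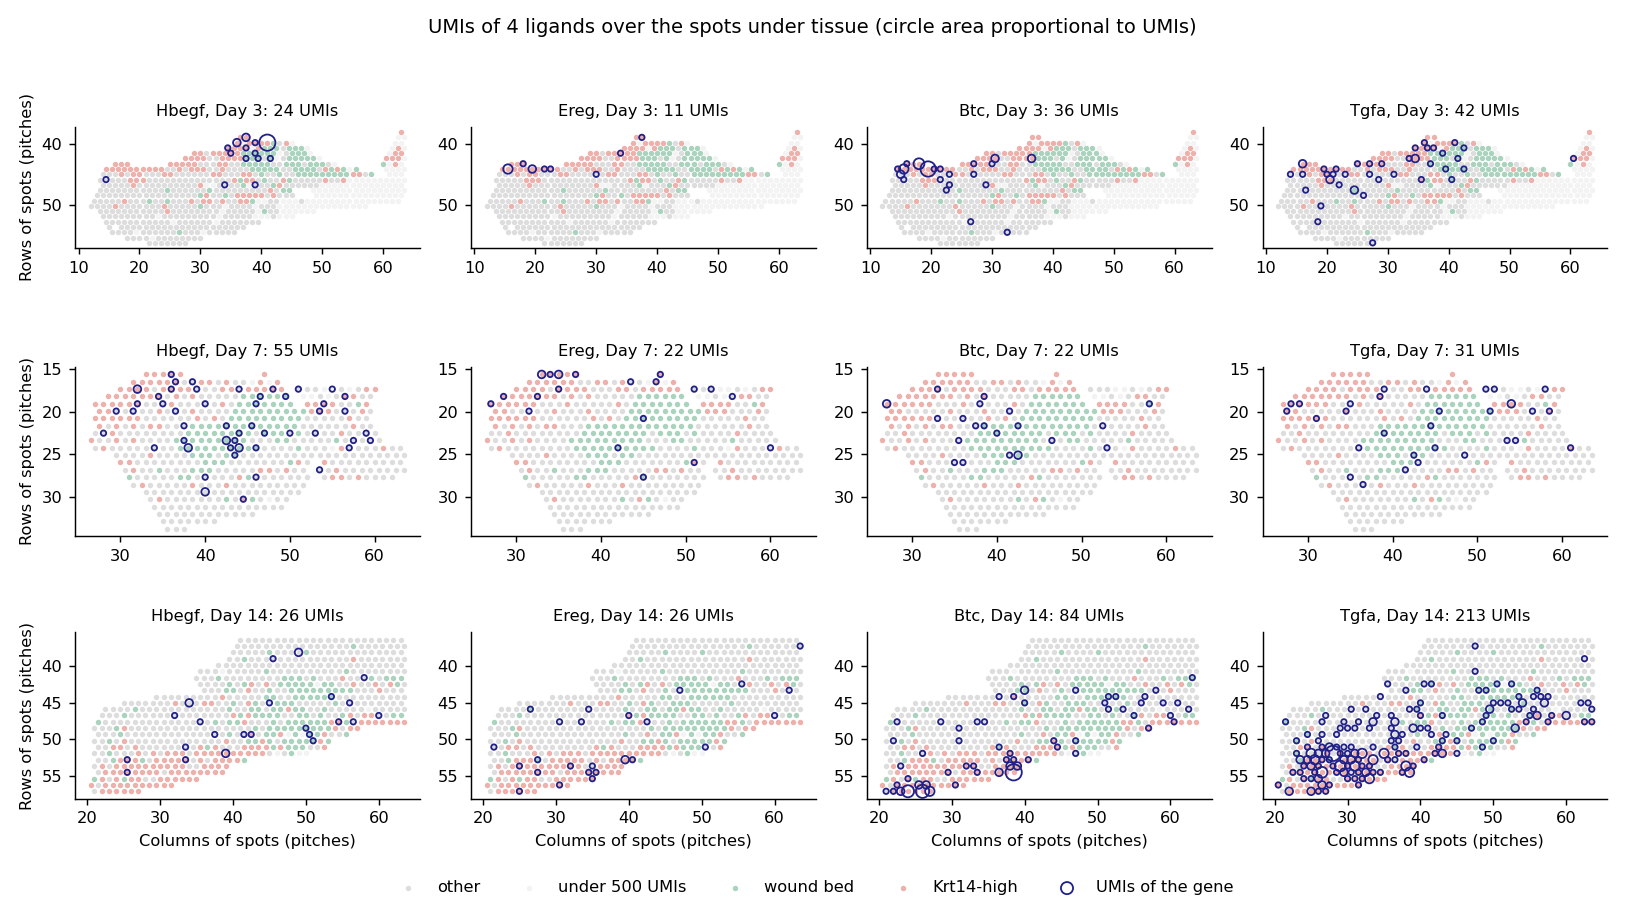
Spots under tissue at their places on the slide (axes in pitches), with *Krt14*-high spots in red, wound bed spots in green, remaining spots in grey and spots under 500 UMIs in pale grey, and blue circles whose area is proportional to the UMIs of *Hbegf*, *Ereg*, *Btc* or *Tgfa* in a spot. On Day 3, 17 of the 24 *Hbegf* UMIs lie in *Krt14*-high spots within 8 pitches of the wound bed core, 9 of them in 1 spot. Of the 36 *Btc* UMIs of Day 3, 20 lie in *Krt14*-high spots farther away, 4 in nearer ones and 12 in remaining spots. On Day 14 the 213 *Tgfa* UMIs lie in 156 of the 697 spots under tissue, with at most 8 in 1 spot.

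To describe the surroundings of the members, the 10% of spots richest in each of 15 marker lists were compared with the other spots of their section. The hair list could not be used in this way on Day 3 and Day 7, where 6 and 16 spots had a UMI of it. On Day 3, spots rich in wound-activated keratinocyte genes (*Krt6a*, *Krt16*, *Sprr1b* and others) held 18 of the 24 *Hbegf* UMIs, at 94.8 against 3.83 CPM (log2 ratio 4.63, 3.23 to 6.25). Spots rich in neutrophil genes held 13 of them, at 158 against 6.58 CPM (4.58, 3.31 to 5.88). Both lists pointed to the same spots, since the 12 spots rich in both held 13 UMIs, at 422 CPM (225 to 722). The 40 spots rich in wound-activated keratinocyte genes only had 5 UMIs, at 31.4 CPM (10.2 to 73.4), and the 40 spots rich in neutrophil genes only had none, which allows up to 71.4 CPM. Without the fullest spot the values were 49.5 CPM in spots rich in wound-activated keratinocyte genes and 53.6 CPM in spots rich in neutrophil genes, and 175 CPM (47.6 to 447) on 4 UMIs in spots rich in both. Other lists overlapped in the same way, with all spots kept. The 14 spots rich in wound-activated and basal keratinocyte genes held 15 UMIs, at 223 CPM (125 to 368). The 15 spots rich in wound-activated keratinocyte and wound bed genes held 11 UMIs, at 241 CPM (120 to 432). The pairs of lists were chosen after the single lists were seen, and which cells of these spots held the transcript was not tested.

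Spots of Day 3 rich in basal keratinocyte genes held 15 *Hbegf* UMIs (2.67, 1.39 to 4.05), 9 *Ereg*, 10 *Epgn* and 22 *Btc* UMIs. All 15 *Hbegf* UMIs lay in those also rich in wound-activated keratinocyte genes, and the other 38 basal spots had none. The spots rich in wound-activated keratinocyte genes held 1 *Ereg*, 2 *Epgn* and 2 *Btc* UMIs. Spots rich in suprabasal keratinocyte genes (*Krt1*, *Krt10* and others) held 10 of the 11 *Ereg* UMIs, 10 of the 14 *Epgn* UMIs and 23 of the 36 *Btc* UMIs. These suprabasal spots held 7 *Hbegf* UMIs (0.70, -0.81 to 2.04). *Btc* was at 64.8 against 9.29 CPM in the suprabasal spots (2.80, 1.76 to 3.91) and had no UMI in the spots richest in macrophage or wound bed genes. *Areg* had 5 of its 10 UMIs in spots rich in wound-activated keratinocyte genes (26.3 against 3.2 CPM, 3.04, 0.92 to 5.16), as *Hbegf* did. *Egfr* stood higher in spots rich in macrophage genes, at 157 against 82.6 CPM (0.93, 0.34 to 1.48), which was not past 2-fold. With the macrophage list its ratio was -0.01 (-0.46 to 0.42) on Day 7 and -0.06 (-0.58 to 0.43) on Day 14.

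On Day 7 the suprabasal list again marked the spots with *Ereg*, which held 13 of its 22 UMIs, at 37.7 against 2.2 CPM (4.10, 2.76 to 5.51). *Tgfa* was at 26.1 against 5.37 CPM in these spots (2.28, 0.98 to 3.46) and at 28.7 against 5.33 CPM in spots rich in wound-activated keratinocyte genes (2.43, 1.13 to 3.6). *Nrg1* was the exception among the ligands, with 11 of 23 UMIs in spots rich in the wound bed list, at 11.4 against 3.45 CPM (1.72, 0.4 to 3.03). It had no UMI in the spots richest in suprabasal or wound-activated keratinocyte genes. With the richest 20% of spots in place of 10%, the interval of the *Nrg1* ratio reached 0 (1.27, -0.03 to 2.62). *Erbb3* was at 2.84 against 30.1 CPM in spots rich in genes of resting fibroblasts (*Pi16*, *Dpp4* and others), on 1 UMI (-3.41, -8.72 to -0.9).

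On Day 14 *Btc* was at 53.9 against 10.5 CPM in spots rich in basal keratinocyte genes (2.35, 1.70 to 3.01). It was at 69.6 against 9.4 CPM in spots rich in suprabasal keratinocyte genes (2.89, 2.24 to 3.55) and at 6.09 against 20.9 CPM in spots rich in hair genes (-1.78, -3.44 to -0.49), and no spot was rich in both lists. *Areg* was higher in spots rich in hair genes, at 23.1 against 11.1 CPM (1.06, 0.2 to 1.88), although without its fullest spot the interval reached 0 (0.84, -0.09 to 1.70). *Tgfa* was higher in spots rich in hair genes (68.2 against 41.4 CPM, log2 ratio 0.72) and basal keratinocyte genes (71 against 40.9 CPM, 0.80). The same held for wound-activated keratinocyte genes (76.8 against 41.6 CPM, 0.88) and sebaceous gland genes (70.8 against 42.1 CPM, 0.75). None of these ratios was past 2-fold, although each interval left out 0. *Tgfa* was lower in spots rich in macrophage genes (18.3 against 48.7 CPM, -1.41, -2.75 to -0.34) and muscle genes (1 UMI, -3.18, -8.49 to -0.69). In the 558 spots rich in neither hair nor basal keratinocyte genes, *Tgfa* was at 36.4 CPM (29.9 to 43.8) and *Areg* at 11.8 CPM (8.26 to 16.3).

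The receptors of Day 14 were compared over the same lists. *Erbb2* was at 212 against 150 CPM in spots rich in hair genes (0.50, 0.25 to 0.75) and at 42.3 against 166 CPM in spots rich in muscle genes (-1.97, -3.19 to -0.99). *Erbb3* was at 127 against 85.5 CPM (0.57, 0.23 to 0.89) and at 10.6 against 96.4 CPM (-3.19, -6.24 to -1.33) in the same spots. *Egfr* was at 128 against 94.2 CPM in spots rich in hair genes (0.44, 0.11 to 0.76). None of these hair ratios reached 2-fold.

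**Figure D5:**
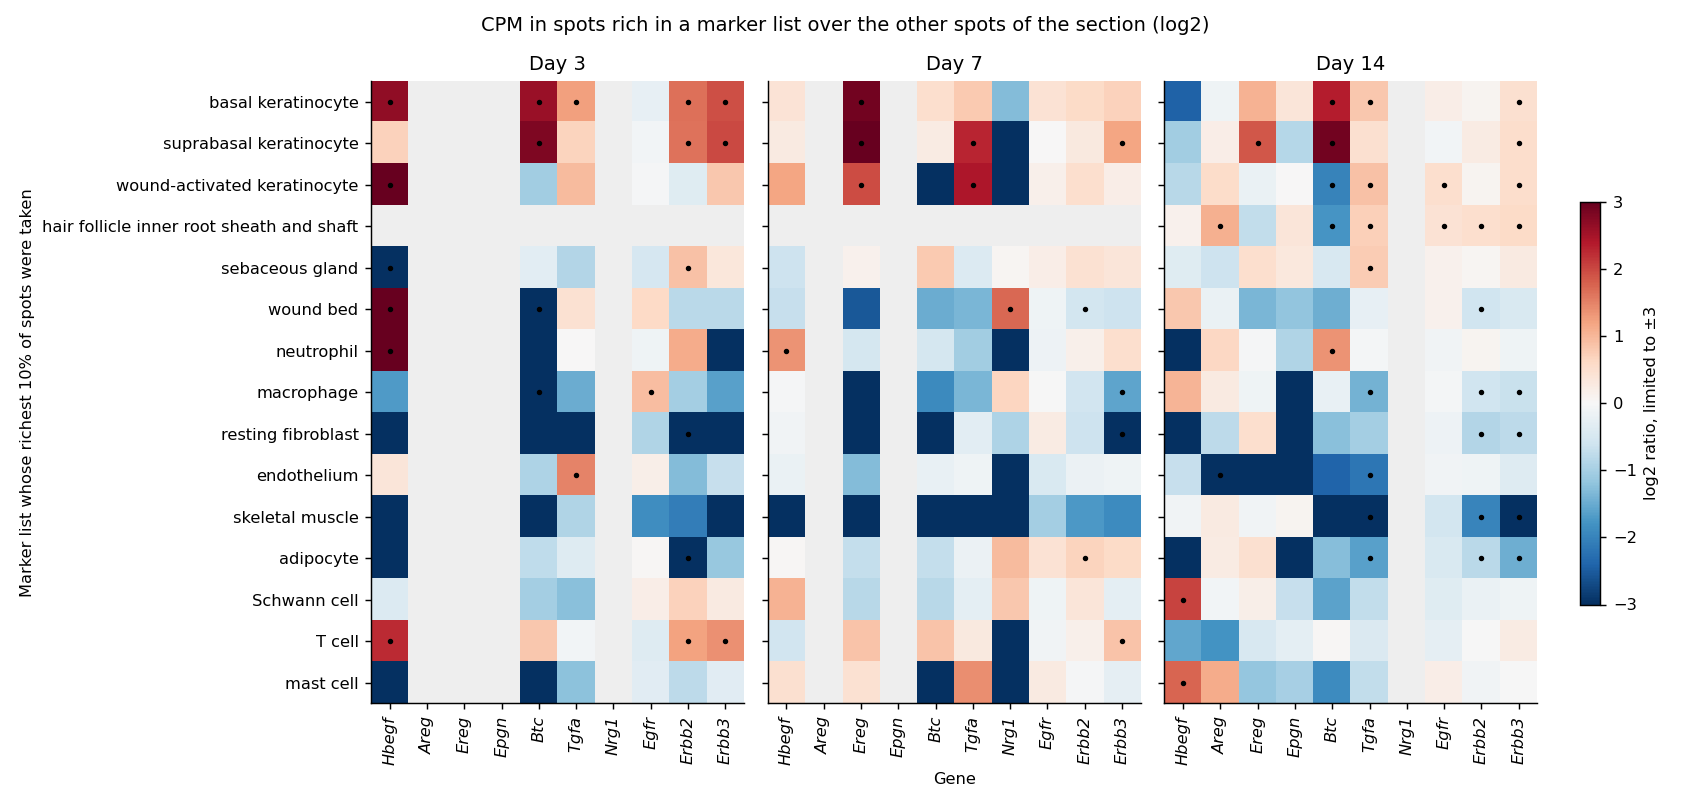
Log2 ratio of CPM in the 10% of spots richest in each marker list (vertical axis) over the other spots of the section, for each gene (horizontal axis) and day (panels), with the colour limited to 3 in either direction, genes without a UMI in the rich spots drawn at the lower limit, and dots where the 95% interval leaves out 0. Grey cells mark genes with fewer than 20 UMIs or lists with too few UMIs to rank spots. *Hbegf* is reddest in the wound-activated keratinocyte, wound bed and neutrophil lists of Day 3, and *Btc* in the basal and suprabasal keratinocyte lists of Day 3 and Day 14.

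The days were also compared within *Krt14*-high spots alone, where *Krt14* itself stood at 6130, 2303 and 4131 CPM in the order of days. *Btc* was at 43.9, 4.8 and 37.8 CPM in the order of days, with log2 ratios of -3.19 (-5.18 to -1.65) and 2.98 (1.53 to 4.91) between neighbouring days. *Epgn* was at 20.1, 1.2 and 5.09 CPM, *Areg* at 12.8, 1.2 and 15.3 CPM, and *Tgfa* at 36.6, 12 and 73.4 CPM. For *Epgn* the Day 14 over Day 7 ratio was within counting error (2.08, -0.88 to 7.58). Per UMI of the basal keratinocyte list in these spots, the Day 7 over Day 3 log2 ratio was -2.59 (-4.57 to -1.04) for *Btc* and -3.46 (-8.89 to -0.68) for *Epgn*. For *Tgfa* (-1, -2.26 to 0.16) and *Areg* (-2.81, -8.3 to 0.15) the interval reached 0 on this scale. *Ereg* differed less, at 18.3, 15.6 and 8.72 CPM. *Hbegf* had its top value of 31.1 CPM on Day 3 and stood at 14.4 and 5.09 CPM on the later days (Day 14 over Day 3, -2.61, -4.13 to -1.27, or -1.55, -3.24 to 0.11, without its fullest spot). For the receptors the Day 14 over Day 7 ratio was 1.10 (0.69 to 1.52) for *Erbb2*, 1.41 (0.88 to 1.98) for *Erbb3* and 0.39 (-0.02 to 0.81) for *Egfr*. Per UMI of the basal keratinocyte list it was 0.33 (-0.08 to 0.75) for *Erbb2* and 0.64 (0.12 to 1.21) for *Erbb3*, neither past 2-fold.

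The spots outside the marked tissue held 20% to 67.1% of the UMIs of a member, depending on gene and day. On Day 3, 1 of 5 members counted was past 2-fold lower outside, beside 3.4% of counted genes higher and 15.9% lower. This was *Erbb2*, at 25.8 CPM (18.8 to 34.7) outside and 52.5 CPM under tissue (-1.02, -1.57 to -0.49). On Day 7 none of 6 was called, beside 3.36% of genes higher and 8.91% lower, and *Hbegf* was slightly higher outside, at 17.3 CPM (14.3 to 20.9) against 12.4 CPM (0.49, 0.01 to 0.98). On Day 14, 3 of 7 were lower outside, beside 2.46% of genes higher and 13.7% lower. They were *Areg* at 4.24 CPM (-1.64, -2.45 to -0.89), *Erbb2* at 71.7 CPM (-1.17, -1.36 to -0.98) and *Erbb3* at 45 CPM (-1.05, -1.29 to -0.81). The median log2 ratio over the members counted was -0.86, -0.36 and -0.96 on Day 3, Day 7 and Day 14, beside -0.38, -0.38 and -0.54 over all counted genes.

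The outside spots with at least 500 UMIs were split by *Krt14* and the wound bed list in the same way. On Day 14, *Btc* was at 34.5 CPM in *Krt14*-high and 7.82 CPM in wound bed spots outside (2.14, 0.59 to 4.13). *Erbb2* of Day 14 stood at 157 against 78.2 CPM outside (1.01, 0.47 to 1.57), beside a ratio of 0.25 under tissue. On Day 3, *Erbb2* had 19 UMIs in *Krt14*-high (125 CPM) and none in wound bed spots outside, whereas *Btc* had 2 UMIs in *Krt14*-high, none in wound bed and 8 in the remaining spots outside. On Day 7, the ratio outside was 0.31 (-0.45 to 1.09) for *Erbb3* and 0.03 (-0.61 to 0.67) for *Erbb2*. In the same spots *Nrg1* had none in *Krt14*-high and 5 in wound bed spots outside, and *Hbegf* was at 36.9 and 18.2 CPM (1.02, -0.04 to 2.17).

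The other 40 genes of the pathway were counted by role. From Day 3 to Day 7, of 33 with enough UMIs 1 was higher and 3 were lower, beside 7.95% and 6.49% of all counted genes. Higher was the adaptor gene *Shc1* (42.3 to 89.8 CPM, 1.09, 0.73 to 1.46), and lower were the ERK-responsive transcripts *Ier3* (175 to 28.4 CPM, -2.62, -2.94 to -2.32), *Egr1* (93.1 to 31.1 CPM, -1.58, -1.92 to -1.25) and *Myc* (45.1 to 18.9 CPM, -1.26, -1.71 to -0.8). From Day 7 to Day 14, 9 of 34 were higher and none lower, beside 10.9% and 7.34% of all counted genes. These were *Rhbdf2*, which encodes a carrier of the shedding protease ADAM17 (25.2 to 65.7 CPM, 1.38, 1.06 to 1.71), the kinase gene *Braf* (10.1 to 25.2 CPM), the feedback inhibitors *Errfi1* (43.2 to 107 CPM, 1.31, 1.07 to 1.56), *Dusp5* (22.7 to 45.5 CPM) and *Dusp6* (25.7 to 61.1 CPM), and the ERK-responsive transcripts *Etv4* (12.2 to 40.1 CPM, 1.72, 1.28 to 2.19), *Egr1* (31.1 to 67.4 CPM), *Ccnd1* (77 to 168 CPM) and *Myc* (18.9 to 42.3 CPM). The median log2 ratio was 0.76 for the 8 feedback inhibitors counted and 1.12 for the 7 ERK-responsive transcripts, beside 0.13 over all genes. The basal keratinocyte list, at 2419 CPM on Day 7 and 4977 CPM on Day 14, moved in the same direction, and its part in these ratios was not tested. The shedding proteases themselves differed little, with *Adam17* at 60.9, 51.3 and 46.2 CPM and *Adam10* at 59.8, 55.8 and 68.1 CPM in the order of days. Between Day 3 and Day 14, *Etv4* was higher (2.15, 1.41 to 2.99) and *Ier3* (-1.77, -2.02 to -1.52) and *Nrg4*, a ligand of ERBB4 (15.2 to 5.64 CPM, -1.43, -2.27 to -0.6), were lower, beside 14.2% of all counted genes higher and 6.83% lower.

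*Erbb4*, the receptor gene for several of these ligands, had 2 UMIs under tissue on Day 7 and none on Day 3 or Day 14, and *Nrg3* had none on any day, which allows up to 2.08, 0.83 and 0.8 CPM in the order of days. *Egf*, the founding ligand of the family, was at 3.39, 6.08 and 4.99 CPM. Between *Krt14*-high and wound bed spots, 14, 27 and 31 of the 40 genes had enough UMIs on Day 3, Day 7 and Day 14, and 1 was called on each day, beside 14.2%, 6.59% and 4.82% of all counted genes higher. It was *Timp3*, an inhibitor of shedding proteases, on Day 3, *Rhbdf2* on Day 7 and *Egr1* on Day 14, each higher in *Krt14*-high spots.

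Over the 689 spots of Day 14, the genes most like *Erbb2* were *Krt5* (Pearson r 0.333), *Lgals7* (0.321) and *Krt15* (0.314), and those most like *Erbb3* were *Krtdap* (0.31), *Fam25c* (0.296) and *Perp* (0.295). *Tgfa* was most like *Sdc1* (0.307), *Krt26* (0.285) and *A030014E15Rik* (0.279), and *Egfr* like *Ly6d* (0.245), *Cldn1* (0.231) and *Krt71* (0.223). The median r with 7413 genes ranged from 0.0484 to 0.0812. On Day 3 and Day 7 the highest r were 0.246 (*Egfr* with *Tpp1*) and 0.269 (*Erbb3* with *Ints11*). These values are descriptions across spots of 1 section, which share its library and their depth, and in counts this sparse a weak correlation is no finding.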

How the data were processed

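Visium sections of mouse skin wounds, 1 for each of Day 3, Day 7 and Day 14, were used as deposited. The counts are whole-number UMI counts per gene and spot, which the authors made with Space Ranger 1.3.0 and the mm10 build, per the submitters' processing notes, and deposited without normalization. The spot positions that the authors deposited give the place of each spot and whether it lies under tissue. No replicate existed, so sections were grouped by day and no test was made.

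UMIs were summed per gene over sets of spots and expressed per 1000000 UMIs of the same spots (CPM). Sums under tissue held 1772259, 4442962 and 4611723 UMIs. Intervals are exact 95% Poisson for sums and exact conditional binomial for ratios. They cover counting error only. Doublets do not apply to spots. A gene was past 2-fold at a log2 ratio of 1 or more in size, with an interval leaving out 0 and at least 50 UMIs. The rule was checked on simulated Poisson counts. These hold counting error only, without spread between sections or crowding of UMIs in single spots, so the check does not cover either.

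All members are named, with up to 8 pathway genes for each kind of comparison by margin. Further pathway genes, *Adam10*, *Adam17* and the genes below the UMI minimum were named after their values were seen. For likeness, genes were ranked by Pearson r of spot shares. The members and gene lists were chosen with earlier results of these data known, and 1 pathway list of 40 genes came with them. The distance from the wound bed core, the pairs of lists and the values without the fullest spot were added after the maps were seen. Alternatives covered the spots, classes, weights, minimum of UMIs and scaling, by TMM (edgeR 4.0.16) and size factors (DESeq2 1.42.0). Python 3.11.15, numpy 2.4.6, pandas 2.3.3, scipy 1.17.1 and R 4.3.3 were used. Positions are from GENCODE M21 (GRCm38, the same assembly as mm10), and promoters from RefSeq.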

Additional observations from a re-analysis of the deposited data

How the results depend on the processing

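Each day was 1 section without a replicate number. No paired analysis was possible because no comparison had replicates to pair. Of 317 ratios of single members under settings that change a ratio, 298 stayed within the counting interval of the reported ratio and 18 moved out of it. Of the ratios called past 2-fold, 1 changed its sign, which was *Erbb2* in *Krt14*-high over wound bed spots of Day 3 under the mean of spot CPM (-0.42). Of the ratios not called, 5 both moved out of their interval and changed sign. The same weighting took *Hbegf* from -0.13 to 1.20 and *Egfr* from -0.23 to 0.20 on Day 7 over Day 3, and *Btc* from -0.16 to 0.71 on Day 14 over Day 3. Thinning took *Egfr* from 0.27 to -0.14 and *Erbb3* from 0.45 to -0.41 in *Krt14*-high over wound bed spots of Day 14. For Day 14 over Day 7, the count of 6 members past 2-fold stayed within 1.5 times under each alternative. For Day 7 over Day 3 the count of 2 became 4 with no minimum of UMIs, 0 with at least 100 UMIs and 1 without the fullest spot. For Day 14 over Day 3 the count of 4 became 2 with at least 100 UMIs, and over all spots of the slide *Areg* and *Hbegf* left it and *Epgn* entered it. Outside over under tissue, the count of 1 on Day 3 became 2 with outside spots at least 2 pitches away and 3 with at least 500 UMIs per spot, and the count of 0 on Day 7 became 1 (*Nrg1*) with no minimum. For *Krt14*-high over wound bed spots the count on each day was 1. It became 0 on all 3 days with the top 10% of spots, the mean of spot CPM, spots thinned to 1000 UMIs, or at least 100 UMIs over both sums. On Day 7 it also became 0 with the top 30% of spots, the basal keratinocyte list with *Krt14*, the shorter wound bed list, at least 20 *Krt14* UMIs per 10000, no minimum of UMIs per spot, and against all other spots, while over all spots of the slide the 1 member called was *Hbegf* in place of *Erbb3*. With no minimum of UMIs over both sums it became 4 on Day 3 and 2 on Day 7, and against all other spots it became 2 on Day 14. A higher minimum, fewer spots and thinning leave fewer genes counted by construction, and the cause of the other differences was not tested. The mean of spot CPM put the *Hbegf* ratio of Day 14 over Day 3 at -0.36, and moved the median of all genes to 0.27 on Day 7 and 0.36 on Day 14 over Day 3, from 0.04 and 0.18. Size factors moved that median on Day 14 to 0.01 over Day 7 and 0.05 over Day 3, from 0.13 and 0.18. At these depths a gene without a UMI could still be present at up to 2.08 CPM under tissue on Day 3 and 0.8 CPM on Day 14.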

Other observations

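*Nrg4*, a ligand of ERBB4, had 75% of its UMIs on the Day 7 slide outside the marked tissue. *Fosl1*, an ERK-responsive transcription factor gene, had 38, 6 and 3 UMIs under tissue in the order of days. In the 7 spots of Day 14 rich in both hair and basal keratinocyte genes, *Tgfa* stood at 149 CPM (76.8 to 260) and *Areg* at 49.5 CPM (13.5 to 127), on 12 and 4 UMIs.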
